A study of Mus musculus with 11 samples.

Results

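The genes of S phase and mitosis were followed through mouse naive extra-embryonic endoderm (nEnd), a stem cell culture related to the primitive endoderm of the blastocyst that holds endoderm cells and cells resembling the epiblast side by side. A list of 36 genes was used, 23 of mitosis and 13 of S phase, out of 48952 genes in the bulk count table and 32285 in the single-cell matrices. All 36 were present in both tables, and all 36 were among the 14185 bulk genes that passed the filter on low counts. For the bulk part, nEnd cells that carry an OCT4-mCherry protein reporter were sorted into Pdgfra+ cells (PDGFRA without the reporter), DP cells (both) and Oct4+ cells (the reporter alone), with 3 RNA-seq libraries each, 9 in all. The single-cell part held 2 droplet libraries of Oct4LOF nEnd, a line of the label EPUc in which 4-hydroxytamoxifen (4OHT) switches Oct4 off: per the study's methods, PDGFRA-positive cells were sorted, kept with 4OHT (+4OHT) or without it (−4OHT) for 48 h and then cultured for 72 h. All 11 samples were cultured on feeder fibroblasts in RACL, a medium with Activin A, CHIR99021 and LIF, and no sample label gives a separate culture or clone for each library.

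A dividing cell copies its DNA in S phase and separates the copies in mitosis, and the 2 groups of genes are switched on in turn. Before S phase, Cdc6 and Cdt1 load the MCM helicase (Mcm2 to Mcm7) onto replication origins, and GINS, of which Gins2 is a subunit, completes the active helicase. The clamp Pcna then holds the polymerases on DNA, and Rrm1, Rrm2 and Tyms supply the nucleotides. Later, Cdk1 with its cyclins drives entry into mitosis, Aurora and Polo kinases and Bub1 proteins control spindle and checkpoint, and Cdc20 and Ube2c work with the anaphase-promoting complex to end it. Pluripotent mouse cells are known for short gap phases and for spending a large part of their cycle in S phase.

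S phase genes are commonly bound by E2F factors and mitosis genes by the DREAM and MMB complexes, through CCAAT boxes and cell cycle homology regions. These letters were searched on both strands in the window from 250 bases before to 50 bases after the start of each gene, with RefSeq sequences of build GRCm38.p6. The motifs were CCAAT, the cell cycle homology region TTTGAA or TTCGAA, and the E2F element TTCCCGC or TTGGCGC, and a hit may overlap another. A window was present for 18 of the 23 mitosis genes and 11 of the 13 S phase genes. CCAAT stood in 16 of 18 mitosis windows (88.9%) and 8 of 11 S phase windows (72.7%), against 37.9% of 27025 promoters. The cell cycle homology region stood in 14 of 18 mitosis windows (77.8%) and 2 of 11 S phase windows (18.2%), against 19.4% of all promoters. The E2F element had the opposite pattern, in 3 of 18 mitosis windows (16.7%) and 7 of 11 S phase windows (63.6%), against 6.93% of all. Both CCAAT and the homology region were in 14 of 18 mitosis windows, against 7.7% of all promoters. The comparison is not matched for base composition, a match is not a bound site, and the members were not chosen by these letters. The windows of 3 mitosis and 3 S phase genes are printed because their levels are followed below, 5′ to 3′ on the strand of the gene, with the motifs in capitals. Mki67 lies at chr7:135716330-135716629 (−), Cdk1 at chr10:69352863-69353162 (−), Ccnb1 at chr13:100786437-100786736 (−), Mcm5 at chr8:75109259-75109558 (+), Pcna at chr2:132253131-132253430 (−) and Cdc6 at chr11:98907901-98908200 (+), and each window spans the promoter and the first transcribed bases.
Mki67: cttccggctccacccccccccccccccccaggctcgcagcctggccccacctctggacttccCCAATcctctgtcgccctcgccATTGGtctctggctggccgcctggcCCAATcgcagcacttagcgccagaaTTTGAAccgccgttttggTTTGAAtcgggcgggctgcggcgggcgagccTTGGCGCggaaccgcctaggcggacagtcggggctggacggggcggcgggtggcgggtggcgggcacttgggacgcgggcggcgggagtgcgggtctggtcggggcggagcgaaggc
Cdk1: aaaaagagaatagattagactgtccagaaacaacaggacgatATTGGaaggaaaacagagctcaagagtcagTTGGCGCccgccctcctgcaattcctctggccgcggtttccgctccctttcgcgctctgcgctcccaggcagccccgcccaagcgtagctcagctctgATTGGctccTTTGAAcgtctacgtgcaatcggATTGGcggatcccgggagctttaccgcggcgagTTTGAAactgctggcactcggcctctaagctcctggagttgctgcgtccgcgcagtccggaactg
Ccnb1: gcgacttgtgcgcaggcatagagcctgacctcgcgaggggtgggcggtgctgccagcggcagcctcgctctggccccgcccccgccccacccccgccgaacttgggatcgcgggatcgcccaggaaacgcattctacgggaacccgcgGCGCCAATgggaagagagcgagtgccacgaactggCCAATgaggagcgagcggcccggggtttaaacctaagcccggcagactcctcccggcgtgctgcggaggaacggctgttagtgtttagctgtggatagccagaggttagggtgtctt
Mcm5: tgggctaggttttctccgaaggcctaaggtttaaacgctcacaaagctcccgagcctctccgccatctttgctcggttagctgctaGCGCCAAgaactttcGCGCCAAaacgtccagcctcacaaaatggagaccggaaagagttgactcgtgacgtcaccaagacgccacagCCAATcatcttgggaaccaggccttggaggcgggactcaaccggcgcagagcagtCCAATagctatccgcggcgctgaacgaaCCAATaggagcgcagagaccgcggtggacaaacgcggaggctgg
Pcna: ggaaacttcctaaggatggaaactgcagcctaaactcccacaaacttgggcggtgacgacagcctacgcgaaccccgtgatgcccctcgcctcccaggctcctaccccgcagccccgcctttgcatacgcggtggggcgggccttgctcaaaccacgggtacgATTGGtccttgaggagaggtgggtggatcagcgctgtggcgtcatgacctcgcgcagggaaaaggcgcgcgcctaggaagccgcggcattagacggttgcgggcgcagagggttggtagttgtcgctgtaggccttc
Cdc6: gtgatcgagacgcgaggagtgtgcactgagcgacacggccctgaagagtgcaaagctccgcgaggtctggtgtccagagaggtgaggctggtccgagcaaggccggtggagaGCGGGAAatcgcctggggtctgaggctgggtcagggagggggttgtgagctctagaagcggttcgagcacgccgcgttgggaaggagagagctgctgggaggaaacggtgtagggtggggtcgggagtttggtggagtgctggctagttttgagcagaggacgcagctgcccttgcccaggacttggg
Mki67 carried 3 CCAAT boxes, the nearest 141 bases before the start, followed by TTTGAA at 116 and 98 bases before it and an E2F element at 67. Cdk1 also had 3 CCAAT boxes and 2 TTTGAA motifs, the closer one 15 bases before the start, and an E2F element 178 bases before it. In Ccnb1 an E2F element overlaps the first of 2 CCAAT boxes, 102 bases before the start, and no homology region was in the window. Mcm5 had 2 E2F elements at 164 and 149 bases before the start and 3 CCAAT boxes, one of them after the start, Cdc6 had 1 E2F element at 138 bases before it and no CCAAT, and Pcna had 1 CCAAT box and neither of the other motifs.

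Bulk totals ran from 8019631 to 11642571 counts per library. The sort was visible in the markers: 12 endoderm markers summed to between 26040 and 38930 CPM (counts per 1000000 counts) in the Pdgfra+ and DP libraries and to at most 757 CPM in Oct4+, and 11 epiblast markers summed to between 4324 and 5871 CPM in Oct4+, between 732 and 1164 CPM in DP and between 153 and 259 CPM in Pdgfra+. Fibroblast markers, 10 genes in all, summed to between 17.6 and 166 CPM, and 10 apoptosis genes to between 1678 and 3325 CPM. In the single-cell libraries, Pou5f1, which encodes OCT4 and is the targeted gene, was at 2.22 CPM in +4OHT endoderm cells and 16.1 CPM in −4OHT endoderm cells. Whether the counted 3′ end lies in the deleted part was not given in the sources used here.

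Oct4+ cells held more S phase RNA than either PDGFRA-positive population and more mitosis RNA than Pdgfra+ cells. The mitosis sums of Oct4+ and DP overlapped, and the S phase genes differed more than the mitosis genes. The 13 S phase genes summed to 1448, 1754 and 1695 CPM in the 3 Pdgfra+ libraries, to 1607, 2118 and 1990 in DP and to 3598, 3685 and 3189 CPM in Oct4+. The 23 mitosis genes summed to 2239, 3374 and 2921 CPM in Pdgfra+, to 3044, 4639 and 3345 in DP and to 4980, 4340 and 3925 CPM in Oct4+. For S phase every Oct4+ library lay above every other library, whereas for mitosis DP library 2 lay above 2 of the 3 Oct4+ libraries. In bulk samples, fewer cycling cells and less of these RNAs per cell cannot be told apart.

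**Figure D1:**
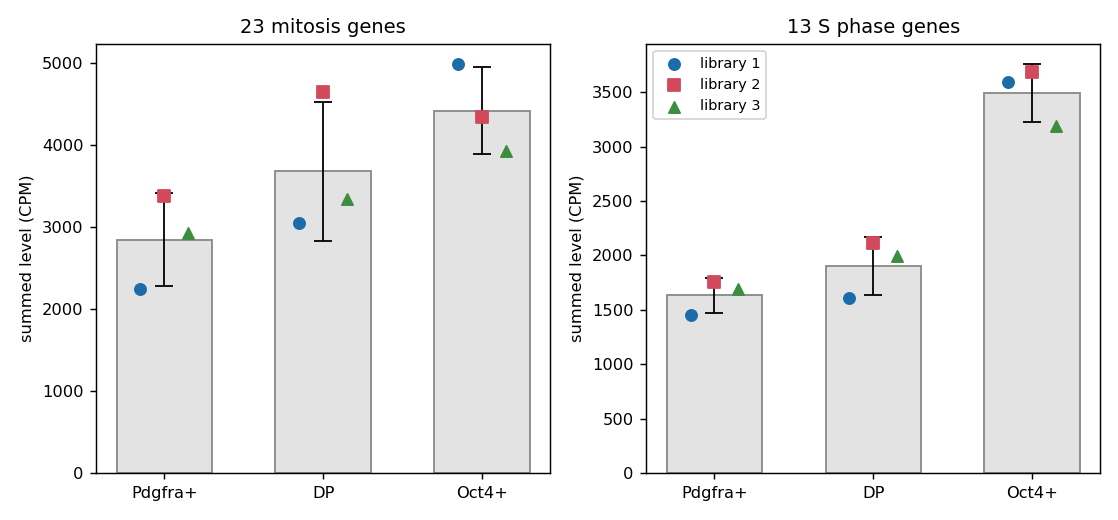
Summed level of the 23 mitosis genes (left) and the 13 S phase genes (right) in CPM for the 3 sorted populations; bars are means, error bars SD (n = 3), and points the libraries by number. S phase sums of Oct4+ start at 3189 CPM, above the highest DP library at 2118 CPM, while the mitosis sums of DP and Oct4+ overlap.

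The first comparison asked how the reporter-only cells differ from endoderm cells without the reporter. Between Oct4+ and Pdgfra+, 12 of 13 S phase genes changed, 11 higher and 1 lower in Oct4+, and 15 of 23 mitosis genes were higher and none lower (edgeR quasi-likelihood test, Benjamini-Hochberg adjusted p under 0.05 over all genes). At an unadjusted p under 0.05, 17 mitosis genes were higher and none lower, against 67.0% of all genes in either direction, and DESeq2 called the same number, 17 higher and none lower. Of all genes tested, 63.2% passed this threshold, 31.8% higher and 31.5% lower, so the share called was above the background for S phase genes (92.3%) and about level with it for mitosis genes (65.2%), with all calls but that of Cdc6 on one side. Libraries did not overlap for 32 of the 36 genes, against 69.3% of all genes. Of the 27 calls, 20 held whichever library was left out, and those of Ccnb2, Cdc6, Gins2, Hmmr, Kif11, Rrm1 and Top2a were lost without at least one of the libraries. The median log2 fold change was 1.31 for S phase and 0.64 for mitosis genes, against 0.01 for all genes.

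The MCM helicase moved as a block. Mcm5 was at 134, 168 and 161 CPM in the Pdgfra+ libraries, at 146, 200.3 and 195 CPM in those of DP and at 437, 616 and 330.1 CPM in those of Oct4+, 1.58 ± 0.23 (SE) higher on the log2 scale in Oct4+ than in Pdgfra+ (adjusted p = 0.0002), the one member past a log2 fold change of 1.5, against 17.3% of all genes higher by that much and 32.0% in either direction. Mcm2 was at 182, 186 and 191 CPM in Pdgfra+, then 175, 223 and 212 in DP and 533, 501 and 417 CPM in Oct4+ (1.38 ± 0.14 on the log2 scale, adjusted p = 2.43e-05). Mcm3 followed, with 133, 156 and 173 CPM in Pdgfra+, 149, 216 and 194 in DP and 468, 408 and 369 CPM in Oct4+. In all 3 genes the DP and Pdgfra+ libraries interleaved and the Oct4+ libraries stood apart above both. Mcm6 (1.40 higher on the log2 scale) and Mcm7 (1.33) behaved alike, and Mcm4 rose least of the 6 (0.64 ± 0.12, adjusted p = 0.0011). Mcm6 read 103, 123 and 148 CPM in Pdgfra+, 119, 146 and 159 in DP and 314, 274 and 398 CPM in Oct4+, and Mcm7 read 122, 171 and 161 CPM, 134, 175 and 160 CPM, and 385, 398 and 355 CPM in the same order.

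Pcna, the sliding clamp, was at 83.7, 101 and 96.7 CPM in Pdgfra+, 95.5, 114 and 114 in DP and 221, 253 and 233 CPM in Oct4+ (1.33 ± 0.13 on the log2 scale, adjusted p = 1.97e-05). Among the genes of nucleotide supply the difference was uneven. Rrm2, the regulated subunit of ribonucleotide reductase, was at 85.0, 132 and 96.8 CPM in Pdgfra+, 117, 252 and 156 in DP and 283, 265 and 230.1 CPM in Oct4+ (1.31 ± 0.27, adjusted p = 0.00173), whereas its partner Rrm1 rose by 0.42 (adjusted p = 0.0495). Tyms, thymidylate synthase, was at 64.0, 76.2 and 58.7 CPM, 72.9, 86.5 and 74.1 CPM, and 81.2, 83.2 and 76.4 CPM and did not pass the test (0.28 ± 0.14, adjusted p = 0.103), although each Oct4+ library was above each Pdgfra+ library.

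Cdc6 went the other way from its partner in loading the helicase. It was at 78.4, 115 and 78.1 CPM in Pdgfra+, 97.9, 114 and 123 in DP and 68.1, 56.9 and 61.5 CPM in Oct4+, so that the Oct4+ libraries were the lowest 3 of the 9. Its log2 fold change was −0.54 ± 0.18 in Oct4+ against Pdgfra+ (adjusted p = 0.0205), and this call was lost without Pdgfra+ replicate 2 or Oct4+ replicate 2. Cdt1 was higher in Oct4+ by 0.96 ± 0.18 (adjusted p = 0.00102) and Gins2 by 0.56 ± 0.17 (adjusted p = 0.0147).

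The mitosis genes differed over a wide range. The checkpoint kinase gene Bub1b, at 79.1, 122 and 110 CPM in Pdgfra+, 103, 166 and 104 in DP and 330.4, 252 and 232 CPM in Oct4+, had the largest difference of the 23 (1.39 ± 0.24, adjusted p = 0.000601). Cdc20, the activator of the anaphase-promoting complex, was at 101, 176 and 128 CPM, 147, 249 and 170.0 CPM, and 309, 388 and 272 CPM in the same order (1.26 ± 0.25, adjusted p = 0.00154). Ccnb1, the B-type cyclin, was at 61.4, 107 and 78.9 CPM, 98.7, 182 and 114 CPM, and 192, 184 and 159 CPM (1.12 ± 0.25, adjusted p = 0.00313). For these 3 genes every Oct4+ library was above every Pdgfra+ library. Aurka (1.02 ± 0.23), Bub1 (0.98 ± 0.19), Kif20a (0.93 ± 0.21) and Nusap1 (0.91 ± 0.19) also rose, as did Cdk1, at 79.1, 120 and 101 CPM in Pdgfra+, 113, 158 and 112 in DP and 185, 164 and 190.2 CPM in Oct4+ (0.85 ± 0.19, adjusted p = 0.00263).

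The 8 mitosis genes that did not pass were Mki67, Ccna2, Plk1, Cenpe, Cenpf, Birc5, Kif23 and Pimreg, and they include Cenpe, Cenpf and Birc5, the 3 genes grouped here as kinetochore and passenger proteins. Mki67, the common proliferation marker, was at 193, 289 and 258 CPM in Pdgfra+, 230.4, 374 and 244 in DP and 247, 178 and 151 CPM in Oct4+, with a log2 fold change of −0.36 ± 0.24 (adjusted p = 0.22) in Oct4+ against Pdgfra+. It had a value below 0 here, as did Pimreg (−0.06), while Top2a, a gene of the same role, rose by 0.64 ± 0.24 (adjusted p = 0.0375) with 347, 479 and 432 CPM in Pdgfra+, 473, 690.1 and 507 in DP and 889, 585 and 486 CPM in Oct4+. Plk1 was at 91.1, 150.0 and 133 CPM, 128, 220 and 138 CPM, and 178, 187 and 180 CPM (0.54 ± 0.23, adjusted p = 0.0609). Cenpe and Kif23 had log2 fold changes of 0.0004 and 0.002. Aurkb, the kinase of the passenger complex, rose modestly, from 50.4, 64.5 and 68.4 CPM in Pdgfra+ through 61.5, 77.2 and 72.7 CPM in DP to 94.1, 87.3 and 82.8 CPM in Oct4+ (0.53 ± 0.15, adjusted p = 0.0115). The count of mitosis genes called in Oct4+ against Pdgfra+ ran from 11 to 17 as each library was left out.

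**Figure D2:**
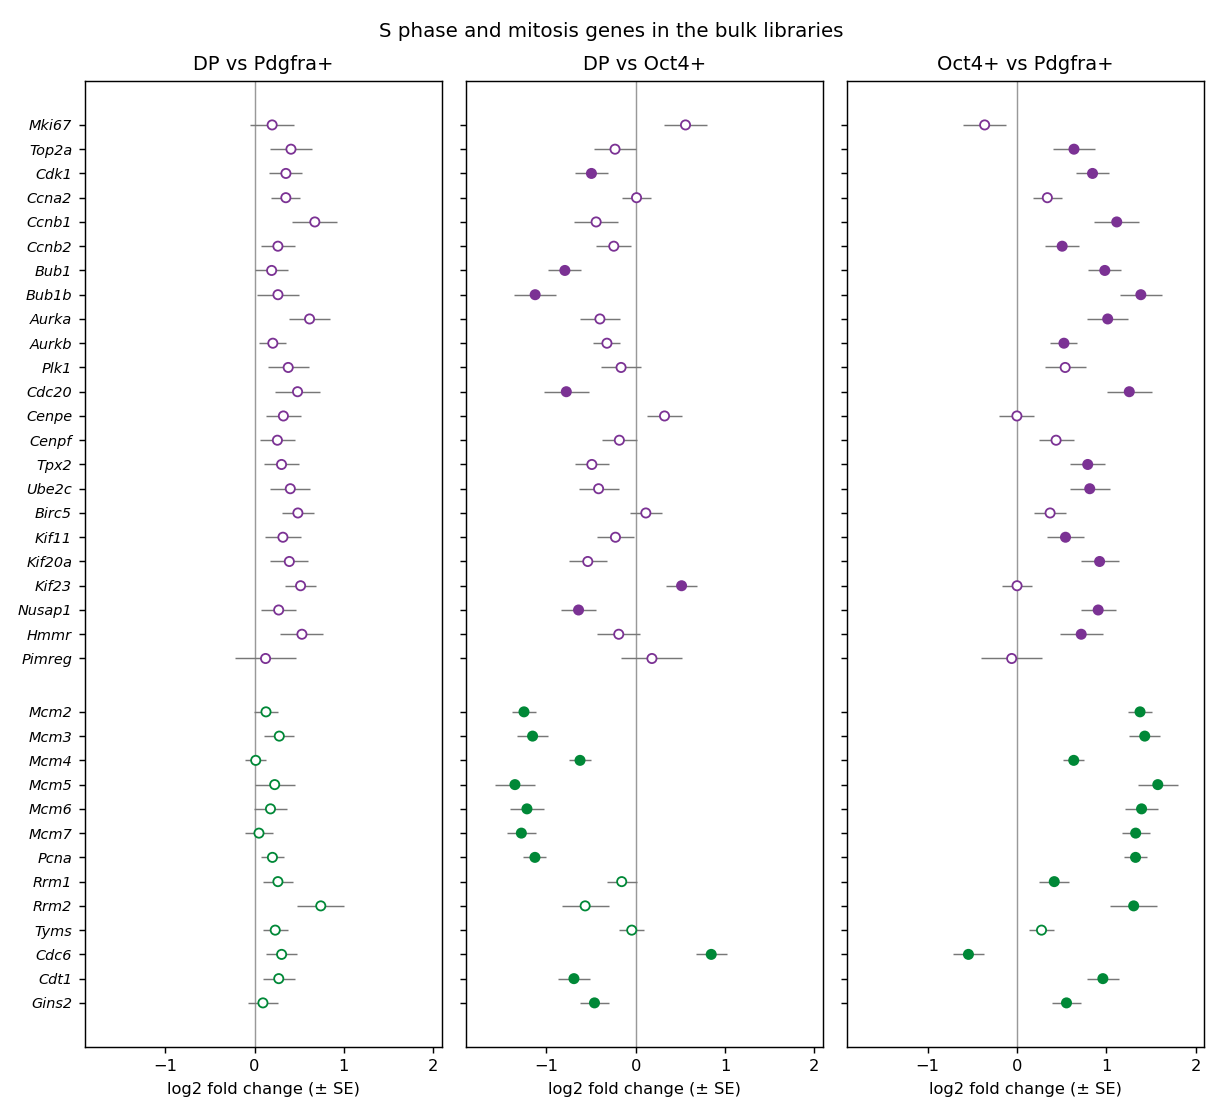
Log2 fold change with its SE for each of the 36 genes in the 3 bulk comparisons, mitosis genes in purple and S phase genes in green; filled points have an edgeR adjusted p under 0.05. All 36 points lie right of 0 in DP against Pdgfra+ with none filled, and Mcm2 to Mcm7 and Pcna lie on the Oct4+ side of 0, each of them filled, in both comparisons with Oct4+, while Tyms is not filled in either.

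The second comparison set DP against Oct4+, which differ in the PDGFRA stain. S phase genes were lower in DP, 9 of 13 passing the test in that direction, and Cdc6 alone was higher (0.85 ± 0.18, adjusted p = 0.0024). Of mitosis genes, 6 of 23 passed: Bub1b (−1.13 ± 0.24), Bub1 (−0.79 ± 0.18), Cdc20 (−0.78 ± 0.25), Nusap1 (−0.64 ± 0.19) and Cdk1 (−0.50 ± 0.18) were lower in DP and Kif23 was higher (0.51 ± 0.17). Bub1 was at 64.6, 104 and 83.8 CPM in Pdgfra+, 86.8, 105 and 97.0 in DP and 188, 171 and 140.4 CPM in Oct4+, with no overlap between DP and Oct4+. Over all members, 19 of 36 did not overlap, against 62.6% of all genes. The background was 56.2% of genes called, 28.3% higher and 27.9% lower in DP, so the mitosis genes were called less often than genes in general (26.1%) and the S phase genes more often (76.9%). The median log2 fold change was −0.69 for S phase and −0.25 for mitosis genes, against −0.04 for all genes. The mitosis median was −0.09 without DP replicate 1 and −0.43 without DP replicate 2. The mitosis count moved with single libraries: it was 10, all lower, without DP replicate 2, 3 without DP replicate 3, and 4 without any one of the Oct4+ libraries, while the S phase count stayed at 9 or 10. The calls of Cdc20, Cdk1, Nusap1, Kif23 and Gins2 were each lost without at least 2 of the 6 libraries, and the other 11 calls held throughout. Within the MCM helicase all 6 genes were lower in DP, with log2 fold changes from −1.35 (Mcm5) to −0.62 (Mcm4).

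Between DP and Pdgfra+, both of which carry PDGFRA, no member passed the test (6.87% of all genes did, 4.62% higher and 2.26% lower in DP), also with DESeq2, and 5 had an unadjusted p under 0.05 against 25.5% of all genes. All 36 log2 fold changes were nevertheless above 0, against 51.9% of all genes, but genes of a list share cell cycle phase and are not independent. The medians were 0.35 for mitosis and 0.23 for S phase genes and 0.02 for all genes. These medians were 0.16 and 0.15 without DP replicate 2 and 0.21 and 0.14 without Pdgfra+ replicate 1. All 11 epiblast markers were also higher in DP, with a median log2 fold change of 2.75, and their part in this result was not tested. The largest were those of Rrm2 (0.74 ± 0.26, adjusted p = 0.119), Ccnb1 (0.68 ± 0.25, adjusted p = 0.132) and Aurka (0.62 ± 0.23, adjusted p = 0.131), and without DP replicate 2 they were 0.38, 0.37 and 0.34. Aurka was at 59.9, 95.9 and 83.9 CPM in Pdgfra+, 95.9, 165 and 107 in DP and 177, 147 and 162 CPM in Oct4+. Hmmr, a spindle protein gene, was at 75.3, 134 and 93.5 CPM in Pdgfra+ and 115, 195 and 127 CPM in DP (0.53 ± 0.24, adjusted p = 0.201). In both genes the 2 populations overlapped, with Pdgfra+ library 2 above DP library 1, and Kif23 alone of the 36 had its DP libraries (148, 232 and 181 CPM) wholly above its Pdgfra+ libraries (109, 144 and 139.5 CPM), against 34.2% of all genes whose libraries did not overlap in either direction.

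Over all genes, deviations of same-numbered libraries of these 2 populations from their group means correlated at 0.271, 0.477 and 0.321. Differently numbered pairs gave −0.311 to 0.0466. Over the members alone the same-numbered values were 0.513, 0.708 and 0.153, but DP replicate 3 with Pdgfra+ replicate 1 gave 0.618. The members thus did not single out the pairing of number 3. Genes are not independent replicates. No sample label states a shared culture or day, so the pairing rests on these correlations only. Fitted with the replicate number as a block on these 6 libraries, 12 members were higher in DP and none lower, 11 of mitosis (Top2a, Ccna2, Ccnb1, Aurka, Cdc20, Cenpe, Ube2c, Birc5, Kif20a, Kif23 and Hmmr) and Rrm2 of S phase, with 10.4% of all genes called higher and 20.2% called in either direction in that fit. Within numbers 1, 2 and 3, DP was the higher of the pair for 23, 23 and 18 of the 23 mitosis genes and for 11, 10 and 12 of the 13 S phase genes, against 50%, 50.8% and 50.4% of all genes. Genes of a list are not independent in these counts. With the block fitted on all 9 libraries no member passed. Of these 6 libraries DP replicate 2 held the highest mitosis sum and Pdgfra+ replicate 1 the lowest, and without DP replicate 2 the log2 fold change of Mki67 was −0.06 and that of Pimreg −0.33.

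Factors that act on these promoters were looked at in the same fit, 18 of 19 listed genes of the E2F, RB and DREAM families being in the table. Mybl2, the MYB subunit of the complex that switches on mitosis genes, was at 62.5, 71.5 and 77.6 CPM in Pdgfra+, 120.2, 159 and 259 in DP and 494, 351 and 322 CPM in Oct4+. The 3 populations did not overlap in Mybl2, and the gene rose by 1.35 ± 0.27 on the log2 scale from Pdgfra+ to DP (adjusted p = 0.0237) and by 2.46 ± 0.28 from Pdgfra+ to Oct4+ (adjusted p = 4.65e-05). E2f8, a repressive E2F, was at 18.7, 17.9 and 22.1 CPM in Pdgfra+, 25.8, 64.7 and 53.3 in DP and 42.6, 49.3 and 31.1 CPM in Oct4+ (1.29 ± 0.31 in DP against Pdgfra+, adjusted p = 0.0402). Both calls were lost on leaving out any one of the Pdgfra+ libraries, DP replicate 2 or DP replicate 3 (adjusted p from 0.0616 to 0.14 there), and that of E2f8 also with only these 6 libraries fitted (0.054). In those fits without 1 library the share of all genes called also fell, from 6.87% to between 0.412% and 3.37%. As each library was left out, the log2 fold change ran from 0.98 to 1.56 for Mybl2 and from 1.01 to 1.59 for E2f8. In Oct4+ against Pdgfra+ the activators E2f2 (2.63 ± 0.41, adjusted p = 0.000351) and E2f1 (1.23 ± 0.16, adjusted p = 9.5e-05) were higher. Of the 18 regulators 7 rose, while E2f6, named here after its values were seen, alone fell (−0.79 ± 0.14). Of all genes 63.2% were called there, 31.8% higher and 31.5% lower. Regulators were thus called less often than genes in general, but not less often on the higher side. Foxm1, an activator of mitosis genes named here after its values were seen, averaged 70.5 CPM in Pdgfra+, 70.3 in DP and 68.6 CPM in Oct4+.

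Other cell cycle genes, written down from general knowledge, were counted in the same way. In Oct4+ against Pdgfra+, 24 of 32 other S phase genes were higher and none lower, led by Cdca7 (2.17) and Hells (1.94) on the log2 scale, which act in chromatin remodelling. Of 36 other G2/M genes, 24 were higher, led by Hmgb2 (1.89) and Ect2 (1.32), and Jpt1, also named after its values were seen, alone was lower (−0.46), against 31.8% of all genes higher and 31.5% lower. In DP against Oct4+, 18 S phase genes were lower and none higher, and 15 G2/M genes were lower and 1 higher, against 27.9% of all genes lower, 28.3% higher and 56.2% in either direction. The number of S phase genes called was thus at the background and that of G2/M genes below it, while the calls lay almost wholly on one side. DP and Pdgfra+ differed in 1 of the 32, E2f8, which is on both lists, and in none of the 36, against 6.87% of all genes. Of the 36, 27 had a log2 fold change above 0, against 51.9% of all genes.

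The single-cell libraries held 6896 (−4OHT) and 7283 (+4OHT) barcodes, of which 21 were shared, and were split by the summed level of Sparc, Col4a1 and Col4a2, genes of basement membrane made by endoderm. With 1 library per condition no test was possible, cells are not replicates, and the intervals below are exact 95% intervals that cover counting error only. At 3000 CPM or more, CPM being taken over all UMIs of a cell, 1586 cells of −4OHT (23%) and 6825 of +4OHT (93.7%) were endoderm cells. The 12 endoderm markers summed to 5659 CPM in −4OHT endoderm cells, 6999 CPM in +4OHT endoderm cells and 165 CPM in the other 5310 cells of −4OHT, which carried 6757 CPM of epiblast markers. The −4OHT endoderm cells also carried 2695 CPM of epiblast markers, against 669 CPM in those of +4OHT, a ratio of sums of 0.248. Of the 11 markers 6 reached 20 CPM in either class, and all 6 were at least 1.5-fold lower in +4OHT, against 8.83% of genes. Their ratios ran from 0.0042 to 0.269 with a median of 0.0766, so the sum hides a larger difference in the typical marker. The 458 other cells of +4OHT were shallow (median 2632.5 UMIs, against 12078 for its endoderm cells). They held 762 CPM of epiblast and 234 CPM of trophectoderm markers. Of 6 epiblast markers with 20 CPM or more in either class, 5 were at least 1.5-fold higher than in +4OHT endoderm cells. Among all such genes 20.2% were higher by that much. The remaining epiblast marker was lower (ratio 0.646), and the median ratio was 23.1. All 4 trophectoderm markers at that level were also higher. These cells held markers of both kinds and are given by their rule only.

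Within the −4OHT library, S phase genes were higher in the other cells than in endoderm cells, and the mitosis genes differed less. The 13 S phase genes summed to 1536 CPM (1528 to 1545) in other cells and 1066 CPM (1053 to 1079) in endoderm cells, a ratio of 1.44. The 23 mitosis genes summed to 4126 CPM (4112 to 4140) and 3388 CPM (3366 to 3411), a ratio of 1.22. At least 1.5-fold higher in the other cells were 6 of 13 S phase and 4 of 23 mitosis genes, against 17.5% of genes with 20 CPM or more in either class, so the share was above this background for S phase genes (46.2%) and level with it for mitosis genes (17.4%). Among S phase genes 1 was at least 1.5-fold lower, against 28.4% of genes.

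The genes involved had the roles seen in the bulk libraries. The 6 that were higher among S phase genes were Mcm2 to Mcm7, which rose 1.79-fold (Mcm2), 1.95-fold (Mcm3), 1.51-fold (Mcm4), 1.92-fold (Mcm5), 1.90-fold (Mcm6) and 1.64-fold (Mcm7) from endoderm to other cells. Cdc6 was the one lower, at 36.5 CPM in other cells and 74.1 CPM in endoderm cells, a ratio of 0.492 (0.464 to 0.522). The mitosis genes past 1.5-fold were Bub1b (2.24), Nusap1 (1.83), Bub1 (1.65) and Cdc20 (1.52). Mki67 was nearly level, at 178 CPM in other and 182 CPM in endoderm cells (ratio 0.976, 0.944 to 1.009), and Pimreg (0.692), Birc5 (0.804) and Kif23 (0.856) were lower in the other cells. Mybl2 was at 241 CPM in other and 102 CPM in endoderm cells, and Foxm1 at 20.8 and 20.3 CPM.

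**Figure D3:**
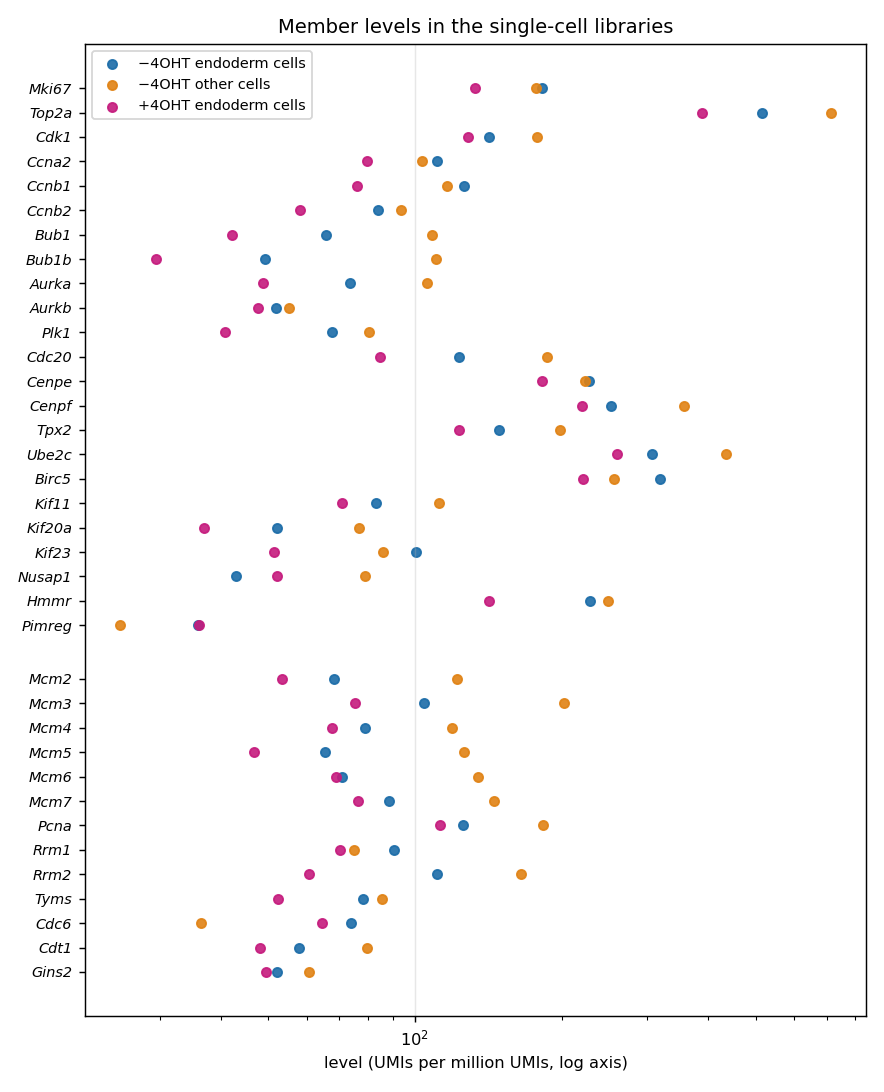
Level of each of the 36 genes, in CPM on a log axis, summed over −4OHT endoderm, −4OHT other and +4OHT endoderm cells (1 library per condition, so no error between libraries). The orange points of Mcm2 to Mcm7, Bub1b, Nusap1, Bub1 and Cdc20 lie 1.5-fold or more right of the blue ones, and that of Cdc6 lies left.

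The bulk and single-cell parts share no library, so the 36 genes could be set side by side. The log2 fold change of Oct4+ over Pdgfra+ was compared with the log2 ratio of other over endoderm cells in −4OHT. Pearson's r was 0.841 and Spearman's rho 0.848 over the 36 genes. Genes of the same list share a cell cycle phase and are not independent. Over 6469 genes measured in both, r was 0.875 and rho 0.871, so r was no higher for the cell cycle genes than for genes in general. The direction was the same for 30 of 36 genes (83.3%) and for 85.2% of all 6469. With Oct4+ over DP in place of Oct4+ over Pdgfra+, a comparison that shares the Oct4+ libraries, r was 0.868 over the 36 genes and 0.916 over all, and the direction was the same for 34 of 36 genes (94.4%) and 86.7% of all.

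The +4OHT and −4OHT libraries were then compared within endoderm cells. With 1 library each, loss of Oct4, exposure to 4OHT and a difference between the libraries cannot be told apart. S phase and mitosis genes were lower in +4OHT endoderm cells: the mitosis genes summed to 2553 CPM (2543 to 2564), 0.754 times (0.748 to 0.76) the −4OHT level, and the S phase genes to 846 CPM (840.5 to 852), 0.794 times (0.783 to 0.805). Of the 23 mitosis genes 7 were at least 1.5-fold lower (30.4%), and of the 13 S phase genes 1 (7.69%), against 8.83% of genes, and none was 1.5-fold higher, against 21.9% of genes. Only Nusap1 (1.21) and Pimreg (1.001) of the 36 had a ratio above 1, against 61.1% of genes, whose median ratio was 1.11. The 8 genes past the fold were Kif23 (0.51), Rrm2 (0.546), Bub1b (0.597), Plk1 (0.602), Ccnb1 (0.603), Hmmr (0.621), Bub1 (0.64) and Aurka (0.664). Ccnb1, for example, was at 76.0 CPM in +4OHT and 126 CPM in −4OHT endoderm cells. Mcm6 (0.973), Gins2 (0.946), Aurkb (0.919), Cdk1 (0.908) and Pcna (0.899) were the closest to 1 of those below it.

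Other measures moved with the condition. Mybl2 was at 53.8 CPM in +4OHT and 102 CPM in −4OHT endoderm cells (0.527, 0.502 to 0.553), the 10 apoptosis genes summed to 1794 and 1319 CPM, fibroblast markers to 199 and 111 CPM, and the median depth was 12078 and 14493.5 UMIs. Their part in the difference was not tested. Restricted after the data were seen to endoderm cells with under 1000 CPM of epiblast markers (5367 and 548 cells), the ratio was 0.829 (0.817 to 0.841) for mitosis and 0.779 (0.759 to 0.799) for S phase genes, all 36 genes being below 1, Nusap1 and Pimreg included, against 58.8% of genes above it. In these cells 3 members were at least 1.5-fold lower, Rrm2 (0.613), Plk1 (0.626) and Tyms (0.654), against 2.54% of genes, Mybl2 had a ratio of 0.884, the apoptosis genes were at 1857 and 1739 CPM, and fibroblast markers were at 217.5 and 275 CPM, the reverse of their order over all endoderm cells. Fibroblast cells, called at 3000 CPM or more of fibroblast collagen genes and numbering 23 and 9, held 1161 and 827 CPM of mitosis genes, below all 3 classes.

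Sums over cells do not show whether every cell had less. Each cell was therefore thinned to 5000 UMIs, which left 1466 of 1586 endoderm and 4101 of 5310 other cells of −4OHT and 6386 of 6825 endoderm cells of +4OHT. Cells with 10 or more mitosis UMIs made up 58.2% (55.6 to 60.7) of −4OHT endoderm cells, 83.1% (81.9 to 84.2) of −4OHT other cells and 36.1% (35.0 to 37.3) of +4OHT endoderm cells. Without thinning the shares over all cells were 67.6%, 75% and 40.1%, the 1209 other cells of −4OHT under 5000 UMIs being included. In endoderm cells with under 1000 CPM of epiblast markers the thinned shares were 49.6% (−4OHT) and 36.4% (+4OHT). Among fibroblast cells they were 2 of 8 (−4OHT) and 4 of 22 (+4OHT), but 6 of 9 and 21 of 23 fibroblast cells also passed the endoderm threshold, so these are a weak reference for free RNA.

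At the low end the order was inverted. No mitosis UMI was found in 8.53% (7.15 to 10.1) of −4OHT endoderm cells, 0.853% (0.595 to 1.18) of −4OHT other cells and 27.4% (26.3 to 28.5) of +4OHT endoderm cells. The median cell held 13 mitosis UMIs in −4OHT endoderm, 18 in −4OHT other and 2 in +4OHT endoderm, whereas the upper decile was at 32, 34 and 30. Among cells with 10 or more, the mean was 23.3, 22.3 and 25.9 UMIs. The cutoff at 10 bounds these means from below, so they do not show whether share or level differed more. S phase genes gave a narrower picture, with 12.0% (10.4 to 13.8), 29.3% (27.9 to 30.7) and 7.97% (7.32 to 8.66) of cells at 10 or more UMIs.

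**Figure D4:**
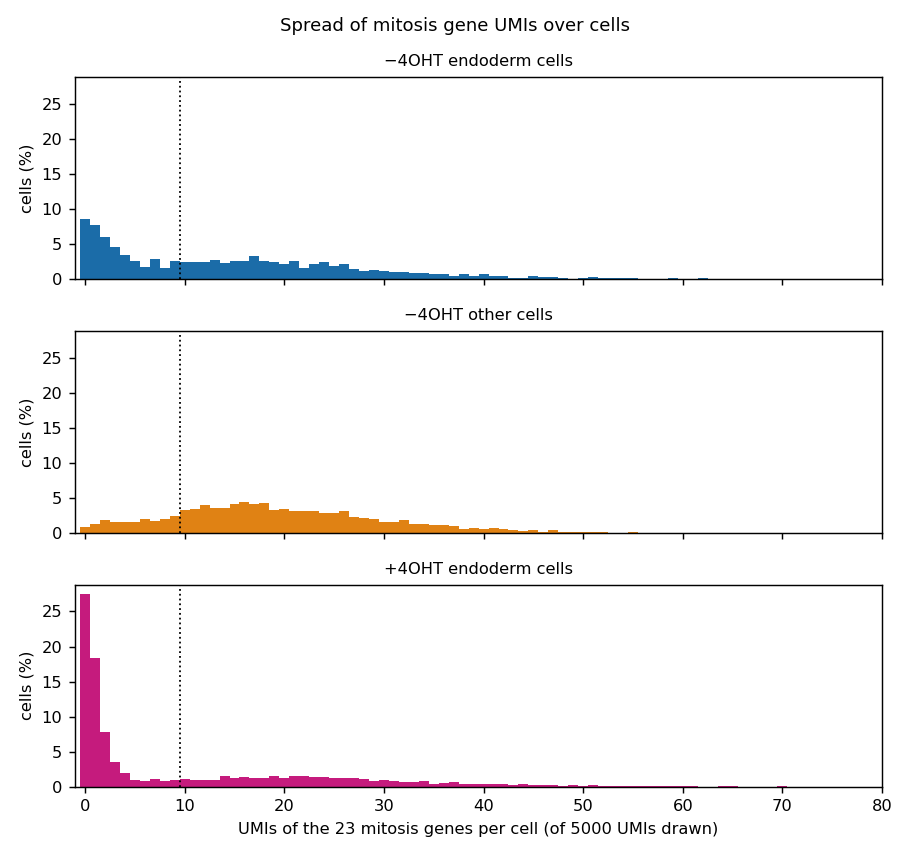
Share of cells (%) by the number of UMIs from the 23 mitosis genes in each cell thinned to 5000 UMIs, for 3 classes of cells; the dotted line marks 10 UMIs. The +4OHT endoderm cells pile up at 0 to 2 UMIs, are few at 5 to 9 (4.79%) and more frequent again above that. They spread over a broad range there, with 12.3% at 10 to 19 and 19.2% at 20 to 39 UMIs. The −4OHT other cells form 1 hump whose peak is at 16 UMIs.

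Single genes mostly followed the sums. Top2a had a UMI in 60.2% of thinned −4OHT endoderm cells, 84.1% of −4OHT other cells and 40.7% of +4OHT endoderm cells, and Mki67 in 44.3%, 50.5% and 26.8%. Fibroblast cells of +4OHT (22 cells) had a median of 30775 UMIs before thinning, against 12078 for its endoderm cells. They had a UMI of Top2a in 40.9% (20.7 to 63.6) and of Mki67 in 22.7% (7.82 to 45.4) of cells. Most of them also passed the endoderm threshold, so these shares cannot measure free RNA. Mcm5 was found in 24.7% of −4OHT endoderm, 44.6% of −4OHT other and 16.7% of +4OHT endoderm cells. Of the 36 genes 3 departed from the order of the sums. Cdc6 had a UMI in 26.9% of −4OHT endoderm, 15.6% of −4OHT other and 20.4% of +4OHT endoderm cells, Pimreg in 13.8%, 11% and 11.1%, and Rrm1 in 33.8%, 30.2% and 24.1%. Fibroblast cells of +4OHT had a UMI of Mcm5, of Cdc6 and of Pimreg in 2 of 22 cells each (9.09%) and of Rrm1 in 4 of 22 (18.2%).

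Ordered by mitosis UMIs, cells showed S phase RNA rising and then falling. In −4OHT endoderm cells the mean S phase UMIs were 2.14 in cells without mitosis UMIs, 6.72 in cells with 10 to 19 and 4.66 in cells with 40 or more. The +4OHT endoderm cells gave 1.61, 6.56 and 5.47 at the same steps, and the −4OHT other cells 3.54, 8.53 and 6.4, above both endoderm classes throughout. Median total UMIs before thinning rose along the same order, from 10558 to 18133 in −4OHT endoderm, from 9961 to 17933.5 in +4OHT endoderm and from 10267 to 22997 in −4OHT other cells. Both counts come from the same cells, so this is a description with no test.

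**Figure D5:**
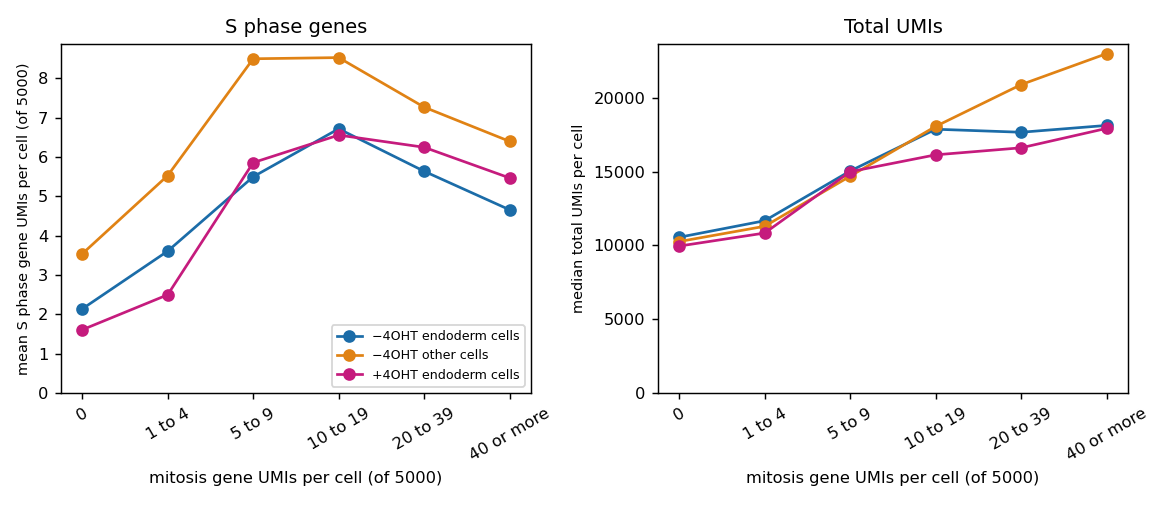
Mean S phase UMIs per cell after thinning to 5000 UMIs (left) and median total UMIs per cell before thinning (right), by the number of mitosis UMIs in the thinned cell, for 3 classes of cells. All 3 S phase curves are highest at 10 to 19 mitosis UMIs, and the total is lowest, between 9961 and 10558 UMIs, in cells without mitosis UMIs.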

How the data were processed

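Bulk libraries came from sorted OCT4-mCherry nEnd cells and single-cell libraries from Oct4LOF nEnd. The deposited bulk table holds raw read counts per gene (whole numbers with differing library totals), and the deposited matrices hold raw UMI counts per gene and barcode made by the authors with Cell Ranger. The submitters' processing notes name Cell Ranger, bcl2fastq and mm10 without saying for which data, and the aligner and annotation of the bulk counts were not given in the sources used here. All bulk columns were assigned to samples by their names.

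Genes were filtered with filterByExpr, normalized by TMM and tested with the quasi-likelihood test of edgeR 4.0.16 (R 4.3.3) over all 9 libraries with group as the only term, the SE being the log2 fold change divided by the root of F. A gene was called at a Benjamini-Hochberg adjusted p under 0.05, and a log2 fold change above 1.5 was counted as well. CPM used the TMM-scaled library sizes. With 3 libraries against 3, p-values measure the spread between these libraries, which may be technical. DESeq2 and the other fits were alternatives.

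Single-cell barcodes were used as deposited, 14179 in all, with no doublet caller. UMIs were summed per class and scaled to all UMIs of the class (CPM) with exact Poisson intervals, a share with Clopper-Pearson intervals. A gene counted as different at a ratio of 1.5 with 20 CPM or more in either class. Cells under 5000 UMIs were left out of the thinned shares, and the intervals cover counting error only, not free RNA. The scripts were tested on simulated data.

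The members, the other gene lists and the classes were chosen with earlier results of these data known. All 36 members could be named. Values in every library were given for 1 or 2 genes of each role and for the 3 genes of each list with the largest change in each comparison. Regulators were named where called in DP against Pdgfra+ or among the 5 largest changes, and up to 4 genes of the other lists. Foxm1, E2f6 and Jpt1 were named apart from this rule, after their values were seen.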

Additional observations from a re-analysis of the deposited data

How the results depend on the processing

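Replicates number 3 per bulk group and 1 per single-cell condition, which limits the precision of the bulk differences and leaves the single-cell differences without a test. In DP against Pdgfra+, where 0 members were called, 3 (2 mitosis, 1 S phase) passed with no filter on low counts and 12 (11 mitosis, 1 S phase) with the replicate block on the 6 libraries, 0 under DESeq2, RLE size factors, the 6 libraries alone and the block on all 9, and 0 to 2 (0 to 1 of each list) as each library was left out. Of the other lists in that comparison, other S phase genes went from 1 to 2 (DESeq2), 0 (6 libraries alone), 3 (block on the 6 libraries) and 0 to 2 (leaving libraries out), other G2/M genes from 0 to 1 (DESeq2, no filter and the block on all 9), 11 (block on the 6 libraries) and 0 to 1, and regulators from 2 to 1 (6 libraries alone), 4 (block on the 6 libraries) and 0 to 2.

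In DP against Oct4+, members called ran from 12 to 20 over the libraries left out (16 with all), mitosis genes from 3 to 10, and 10 mitosis genes were called with the replicate block on all 9 libraries. In Oct4+ against Pdgfra+ the ranges were 21 to 28 members (27 with all) and 11 to 17 mitosis genes. Numbers did not pair the libraries there (same-numbered correlations over all genes from −0.0728 to 0.152). The block moved no other count of calls in these 2 comparisons by over 1.5 times. Other G2/M genes ran from 11 to 19 in DP against Oct4+ and from 19 to 29 in Oct4+ against Pdgfra+.

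Log2 fold changes near 0 changed sign. In DP against Oct4+, Ccna2 (0.01) was −0.041 (DESeq2), −0.0515 (RLE) and −0.0048 (block on all 9). In Oct4+ against Pdgfra+, Cenpe and Kif23 were −0.0246 and −0.025 with no filter, and Pimreg 0.0107 (DESeq2) and 0.0221 (RLE). Foxm1 was 0.0146, 0.0156, 0.0113, 0.0133 and 0.0133 in DP against Pdgfra+ (DESeq2, RLE, no filter, and the 6 libraries without and with the block), −0.0174 and −0.0274 in DP against Oct4+ and 0.0319 and 0.043 in Oct4+ against Pdgfra+ (DESeq2 and RLE). Leaving out libraries gave, in DP against Pdgfra+, −0.0588 to 0.33 (Mki67), −0.0052 to 0.39 (Bub1b), −0.33 to 0.31 (Pimreg), −0.0575 to 0.0844 (Mcm4), −0.082 to 0.15 (Mcm7), −0.0067 to 0.19 (Gins2), −0.0938 to 0.43 (E2f2) and −0.14 to 0.0742 (Foxm1). In DP against Oct4+ it gave −0.40 to 0.0705 (Top2a), −0.0846 to 0.15 (Ccna2), −0.43 to 0.015 (Plk1), −0.035 to 0.26 (Birc5), −0.25 to 0.48 (Pimreg), −0.26 to 0.0056 (Rrm1), −0.11 to 0.0361 (Tyms), −0.0356 to 0.56 (E2f8) and −0.0825 to 0.25 (Foxm1). In Oct4+ against Pdgfra+ it gave −0.14 to 0.13 (Cenpe), −0.0936 to 0.0431 (Kif23), −0.36 to 0.0878 (Pimreg) and −0.25 to 0.0764 (Foxm1). None of these genes passed the test in the comparison given.

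In single cells neither the mitosis nor the S phase ratio of sums changed sides of 1 under these alternatives, whereas Nusap1 and Pimreg fell below 1 in +4OHT over −4OHT endoderm cells with the epiblast marker limit. For +4OHT over −4OHT endoderm cells the mitosis and S phase ratios were 0.792 and 0.828 at an endoderm threshold of 6000 and 0.684 and 0.74 as the mean over cells. The mitosis ratio was 0.739 without barcodes above 3 times the median UMIs. With epiblast markers below 1000 CPM, chosen after seeing the data, they were 0.829 and 0.779. For other over endoderm cells of −4OHT the ratios were 1.28 and 1.48 at the threshold of 6000, the S phase ratio was 1.38 as the mean over cells, and the mitosis ratio 1.32 with the epiblast marker limit. Shares with 10 or more mitosis UMIs were 41.5% and 75.8% (−4OHT endoderm), 27.9% and 53.0% (+4OHT endoderm) and 58.1% and 94.8% (−4OHT other) after thinning to 3000 and 10000 UMIs, and those with 10 or more S phase UMIs 1.74% and 54.8%, 1.31% and 41.2%, and 4.25% and 84.4%. With the epiblast marker limit the −4OHT endoderm shares were 49.6% (mitosis) and 15.7% (S phase). The thinning depth sets these shares by construction, and the order of the 3 classes was the same at each depth.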
